A study of Mus musculus with 8 samples.

Results

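The 34 genes described here mark T lymphocytes and natural killer (NK) cells. They were chosen by name: 21 belong to T cells in general (the receptor complex, coreceptors, signalling and homing genes) and 13 to cytotoxic and NK cells (granule proteins, receptors and transcription factors). Of these, 31 had a probe set carrying that single symbol, out of 18191 genes so named on the arrays; Lck, Tcf7 and Klrb1c were not analysed here. RNA came from lobe 1 of the right lung, and the mice were ICR males, of an outbred strain, aged 5 to 6 weeks. Each mouse had received, into the trachea under pentobarbital, either single-walled carbon nanotubes (SWCNT, 0.5 mg in 50 µl of 0.1% Pluronic F-68) or the surfactant Pluronic F-68 (PF68) with no tubes. Lungs were taken on day 1 or day 7, which gave 4 groups of 2 arrays: PF68 day 1, SWCNT day 1, PF68 day 7 and SWCNT day 7. The study asked how the nanotubes alter lung transcripts relative to the solvent. All animals were instilled, so no group shows an untouched lung, and although the labels speak of biological replicates, they do not say whether an array is 1 mouse. The p-values then reflect the spread of the arrays, part of which may be technical.

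T cells recognise peptide through a receptor whose CD3 chains carry the signal inward, and CD4 or CD8 joins as coreceptor. NK cells and cytotoxic T cells kill by releasing perforin and granzymes, and NK cells decide through inhibitory and activating receptors such as the CD94 and NKG2 families. The lung holds both kinds of cell in its capillaries and tissue, and naive and central memory T cells use CCR7 and the interleukin 7 receptor to home to lymphoid tissue and to survive.

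Every sample level below is a log2 signal read from the deposited values, on which the array median was -0.628; a difference is SWCNT minus PF68 unless another is named, ± is the standard error of the fit for a difference and the SD (n = 2) for a group mean, and a gene is called at an adjusted p under 0.05 (limma, Benjamini-Hochberg over 13854 genes). Levels of different genes were not compared with each other. Of the 31 measured genes, 15 were at or above the array median on all 8 arrays and 11 had a mean below it (Cd4, Cd8b1, Cd28, Cd5, Cd6, Sh2d1a, Cd69, Prf1, Klrk1, Ncr1 and Eomes), where arrays scatter most. The test was run on 29 genes, 17 of the T cell side and 12 of the cytotoxic and NK side, since Cd28 and Sh2d1a did not pass the filter on dim signals. Of the 29, Klrk1 and Tbx21 reached the array median on PF68 arrays only, Cd8b1 on day 1 arrays only, and Cd4, Prf1 and Eomes on day 7 arrays only. These 6 entered the test through the groups where they were high, so their differences along that line are not support for a direction, and counts without them are given. Cd5 and Ncr1 reached the array median on 1 PF68 day 1 and 1 SWCNT day 7 array only. Their differences between treatments are not support for a direction either, though the counts keep them.

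The arrays of a group correlated at 0.915 to 0.941 over all probe sets, and arrays of different groups at 0.891 to 0.931. The SWCNT day 1 arrays stood apart in genes of tissues other than lung. Of the skeletal muscle list, 9 of 11 tested genes were called higher than in PF68 on day 1 (summed level, the log2 of the sum of the signals off the log scale, 6.67 to 6.75 against 2.76 to 2.95), as were 4 of 9 of the squamous epithelium list (5.27 to 5.36, against 2.28 to 2.34) and 4 of 6 of the adipose list. Beta-actin's 3′ probe set exceeded its 5′ probe set, a gap that grows as RNA is shortened, by 2.01 to 2.04 in PF68 day 1, 1.31 to 1.36 in SWCNT day 1, 3.25 to 3.29 in PF68 day 7 and 2.94 to 2.99 in SWCNT day 7. The lung epithelium list had a summed level of 10.36 to 10.49 over all groups. None of its 9 tested genes, nor of the 10 of the lung endothelium list, was called on day 1 in limma (unadjusted p under 0.05 for 1 and 4 genes), with medians of -0.01 and 0.04. Scaling the arrays to their hybridization spikes moved the median gene from -0.02 to -0.24 on day 1 and from 0.02 to 0.58 on day 7, so differences are to be read relative to the other genes. Day 7 directions of small differences turn with that scaling, as given below.

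The stretches of 250 bases before the start sites are shown for genes on which the results turn: the 3 CD3 chains that lay lower together on day 1, the cytotoxic genes Gzma, Gzmb and Nkg7, and Il7r, which was higher on day 7. They are RefSeq sequences of build GRCm38.p6, read 5′ to 3′ on the strand of the gene. Capitals mark matches, on either strand, to TGTGGT (bound by RUNX factors), AGGAAG (ETS), TTCNNNGAA (STAT), GGTGTGA (T-box), CTTTGA (TCF and LEF) or TGANTCA (AP-1).
Cd3d (chr9:44981536-44981785, plus strand): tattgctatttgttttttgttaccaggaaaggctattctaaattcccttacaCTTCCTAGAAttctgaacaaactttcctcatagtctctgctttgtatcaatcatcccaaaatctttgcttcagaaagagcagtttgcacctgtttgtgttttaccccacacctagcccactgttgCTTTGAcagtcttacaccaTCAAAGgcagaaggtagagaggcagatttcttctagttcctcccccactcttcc
Cd3e (chr9:45009612-45009861, minus strand): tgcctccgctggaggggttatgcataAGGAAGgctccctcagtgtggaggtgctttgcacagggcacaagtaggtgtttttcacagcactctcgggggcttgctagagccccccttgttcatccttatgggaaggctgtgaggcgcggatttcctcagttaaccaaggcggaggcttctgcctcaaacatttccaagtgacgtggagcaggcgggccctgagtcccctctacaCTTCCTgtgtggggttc
Cd3g (chr9:44980432-44980681, minus strand): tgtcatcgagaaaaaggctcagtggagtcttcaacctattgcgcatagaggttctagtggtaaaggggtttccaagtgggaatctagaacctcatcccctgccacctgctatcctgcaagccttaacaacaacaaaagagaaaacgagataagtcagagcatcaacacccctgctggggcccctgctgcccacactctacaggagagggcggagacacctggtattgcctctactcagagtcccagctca
Gzma (chr13:113100982-113101231, minus strand): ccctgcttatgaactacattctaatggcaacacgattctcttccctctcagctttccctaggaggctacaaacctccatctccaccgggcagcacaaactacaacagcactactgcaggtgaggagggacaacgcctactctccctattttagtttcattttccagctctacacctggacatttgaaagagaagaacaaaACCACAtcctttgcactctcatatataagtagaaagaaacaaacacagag
Gzmb (chr14:56262335-56262584, minus strand): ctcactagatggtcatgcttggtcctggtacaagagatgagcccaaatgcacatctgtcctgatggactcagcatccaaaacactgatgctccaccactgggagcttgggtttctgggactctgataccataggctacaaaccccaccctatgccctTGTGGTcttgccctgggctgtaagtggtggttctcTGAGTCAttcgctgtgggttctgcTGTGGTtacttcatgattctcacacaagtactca
Nkg7 (chr7:43436888-43437137, plus strand): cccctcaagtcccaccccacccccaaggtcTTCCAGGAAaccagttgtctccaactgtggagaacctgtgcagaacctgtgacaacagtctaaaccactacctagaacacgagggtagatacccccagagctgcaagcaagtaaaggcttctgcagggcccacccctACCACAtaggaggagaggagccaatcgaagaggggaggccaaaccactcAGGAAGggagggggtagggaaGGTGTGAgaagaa
Il7r (chr15:9529877-9530126, minus strand): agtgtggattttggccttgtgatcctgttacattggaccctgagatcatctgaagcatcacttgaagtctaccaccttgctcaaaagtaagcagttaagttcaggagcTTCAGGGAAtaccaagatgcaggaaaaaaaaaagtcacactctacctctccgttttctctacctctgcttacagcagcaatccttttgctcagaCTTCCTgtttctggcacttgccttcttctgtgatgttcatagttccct

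Of 32851 promoter stretches of this length, 14.0% held the RUNX letters, 29.5% the ETS, 7.02% the STAT, 3.33% the T-box, 13.8% the TCF and LEF and 6.75% the AP-1 letters. The promoter table matched 20 of the 34 genes, with 25 stretches, of which 10 held the RUNX letters, 14 the ETS, 3 the STAT, 1 the T-box (Nkg7), 2 the TCF and LEF and 1 the AP-1 letters (Gzmb). RUNX letters lay before Gzma, Gzmb (at 93 and 34 bases) and Nkg7 but before none of the 3 CD3 genes. In the Cd3d stretch an ETS match overlaps the STAT match, and in that of Nkg7 the capitals nearest the start are the T-box letters. These matches describe letters only. Cd3g and Cd3d lie back to back on chromosome 9 with 1355 bases between their start sites, and Cd3e starts 27825 bases from Cd3d.

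On day 1, 2 of the 29 tested T and NK genes were called between SWCNT and PF68 lungs, both lower in SWCNT, and neither call outlasted the loss of any 1 day 1 array. Cd3d, a chain of the T cell receptor complex, fell 3.06-fold and Gzma, which encodes granzyme A, fell 2.10-fold. Gzmb, Nkg7, Cd3e, Tbx21 and Cd2 had differences of -2.29 to -1.12 that did not pass the test, with the arrays of the groups apart for each. The fitted difference was below 0 for 24 of 29 tested genes (82.8%), against 52.2% of all genes, and the SWCNT arrays lay wholly below the PF68 arrays for 18 of 29 (62.1%), against 28.6%. Without Klrk1 and Tbx21 these counts were 22 and 16 of 27. The 27 still hold Cd5 and Ncr1, and both were below 0. Over all 31 measured genes, each on its tested probe set where it had one, 26 were below 0. The 5 tested genes not below 0 were Eomes, Zap70, Il7r, Cd8a and Lat, at 0.47 to 0.00. A brighter probe set of Eomes, which did not pass the filter, was at -0.54. The median over the 29 was -0.60, and -0.61 over all 31 measured, against -0.02 for all genes. Called were 2 of 29 genes (6.90%), both lower, against 2.17% of all genes in either direction and 1.23% lower. At an unadjusted p under 0.05, 14 of 29 were lower (48.3%), against 10.4% of all genes. Klrk1 and Tbx21 are among the 14 and are not support for that direction. With spike scaling 16 of 17 T cell genes and 11 of 12 cytotoxic and NK genes were below 0, with medians of -0.80 and -1.01. These 11 hold Klrk1 and Tbx21. That scaling also moved the median of all genes down to -0.24, so these counts are not set against the 52.2% above.

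**Figure D1:**
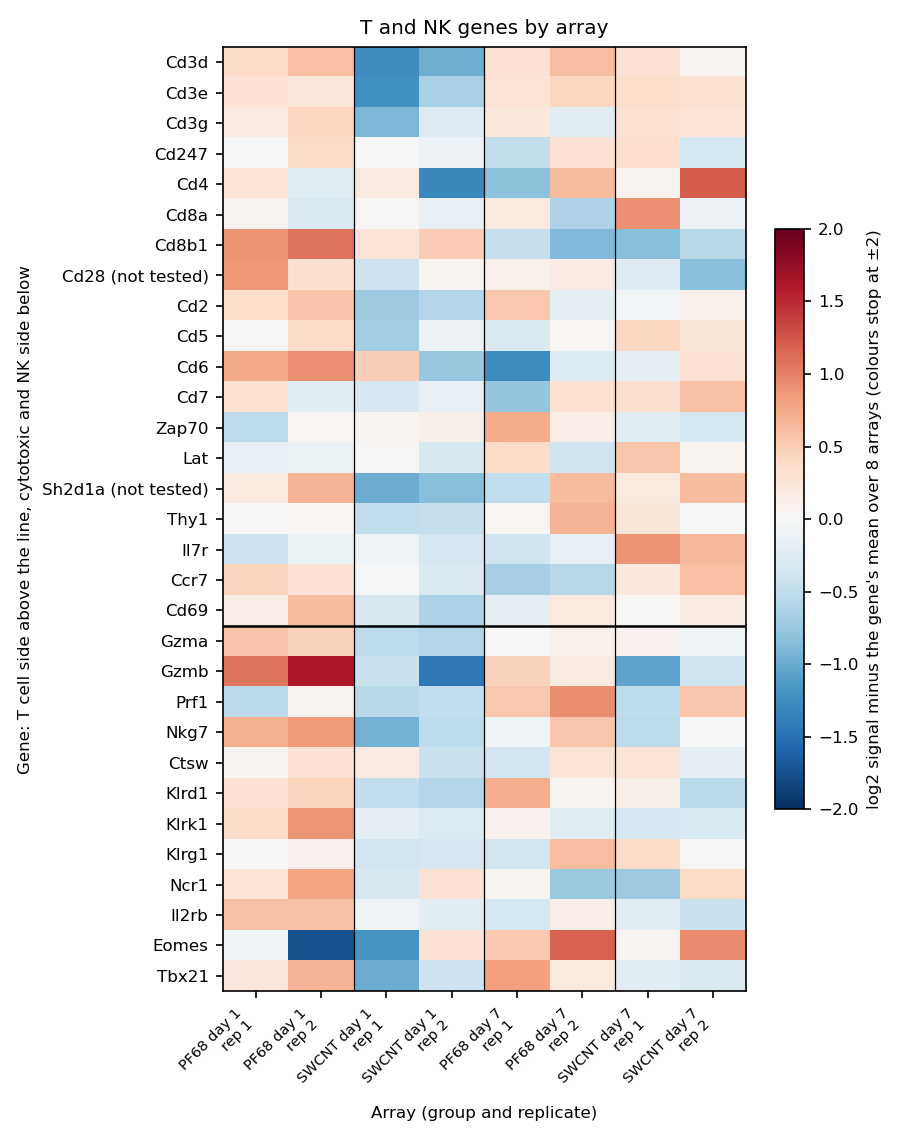
Each row is 1 of the 31 measured genes and each column 1 of the 8 arrays; colour gives the log2 signal minus the gene's mean over the arrays, red above and blue below it. The SWCNT day 1 columns are mostly blue on both sides of the line that parts the 19 T cell genes from the 12 cytotoxic and NK genes.

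Among the receptor complex genes, Cd3d (probe set 1422828_at) read 1.24 and 1.46 on the PF68 day 1 arrays, -0.39 and -0.12 in SWCNT day 1, 1.15 and 1.47 in PF68 day 7 and 1.15 and 0.92 in SWCNT day 7. Only the SWCNT day 1 arrays were low, and they overlapped no other group. The day 1 difference was -1.61 ± 0.182 (group means 1.35 ± 0.158 and -0.26 ± 0.190; adjusted p = 0.0185 in limma). Cd3e, whose product pairs with the delta and gamma chains, read 1.10 and 1.03, then -0.41 and 0.16, then 1.08 and 1.24, then 1.16 and 1.11 in the same order of groups. Its SWCNT day 1 arrays were again the 2 lowest, and the difference of -1.19 ± 0.200 missed the threshold (adjusted p = 0.0510 in limma). Cd3g, the gamma chain gene, differed by -0.87 ± 0.258 with the groups apart (adjusted p = 0.161), and Cd247, which encodes the zeta chain, by -0.23 ± 0.346 with overlapping arrays (adjusted p = 0.781).

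The coreceptor, adhesion and costimulation genes ranged from -1.12 to 0.04 on day 1 among the 7 tested, and none was called. Cd2, an adhesion receptor of T and NK cells, differed by -1.12 ± 0.245 (adjusted p = 0.0921), from 0.81 and 1.02 to -0.27 and -0.13. Cd6, a scavenger receptor family member that tunes T cell activation, read -0.12 and 0.05 in PF68 day 1, -0.38 and -1.63 in SWCNT day 1, -2.12 and -1.14 in PF68 day 7 and -1.05 and -0.58 in SWCNT day 7. Its 2 SWCNT day 1 arrays were far apart, and the difference of -0.97 ± 0.498 did not pass (adjusted p = 0.373). Cd5, a brake on receptor signalling, differed by -0.60 ± 0.250, Cd8b1, the CD8 beta chain gene, by -0.61 ± 0.203, and Cd4, at or above the array median on 2 arrays, by -0.58 ± 0.716. The probe set used for Cd8a, of a type that can bind other transcripts, differed by 0.04, while the 4 others of the gene, all dimmer, ranged from -1.01 to -0.22.

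The signalling genes were not called, and Zap70 differed between probe sets. Zap70, the kinase recruited by phosphorylated CD3 chains, differed by 0.33 ± 0.261 on day 1 and was the only tested member whose SWCNT arrays lay wholly above its PF68 arrays, while its 2 other probe sets were at -0.45 and -0.82. Lat, the adaptor that ZAP70 phosphorylates, differed by 0.00 ± 0.3. Of the identity, survival and homing genes, Cd69, an early activation and tissue retention marker, differed by -0.86 ± 0.228 (adjusted p = 0.136). Ccr7 differed by -0.53 ± 0.178 (adjusted p = 0.198) and Thy1, a surface glycoprotein that fibroblasts also carry, by -0.49 ± 0.226 (adjusted p = 0.321). The arrays of the groups were apart for these 3, and Il7r, at 0.06 ± 0.174, overlapped.

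Granule genes held the largest differences of the cytotoxic and NK side. Gzma (1417898_a_at) read 3.71 and 3.59 in PF68 day 1, 2.61 and 2.55 in SWCNT day 1, 3.14 and 3.23 in PF68 day 7 and 3.22 and 3.03 in SWCNT day 7. The SWCNT day 1 arrays were the lowest 2 of the 8 and the PF68 day 1 arrays the highest 2. The day 1 difference was -1.07 ± 0.119 (adjusted p = 0.0183 in limma). Gzmb, encoding granzyme B, read 1.94 and 2.48, then 0.41 and -0.56, then 1.32 and 1.04, then -0.19 and 0.46 in that order of groups. It had the largest difference of the 29 genes, 4.88-fold lower on day 1, but its SWCNT arrays spread by an SD of 0.688 and it was not called (-2.29 ± 0.399, adjusted p = 0.0561). Nkg7, a granule membrane protein gene, read 1.25 and 1.39, then -0.40 and 0.02, then 0.46 and 1.10, then 0.02 and 0.51. It differed by -1.51 ± 0.286 on day 1 (adjusted p = 0.0683). Ctsw, a lymphocyte cathepsin gene, and Prf1, the perforin gene, overlapped between groups (-0.31 ± 0.319 and -0.29 ± 0.388).

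**Figure D2:**
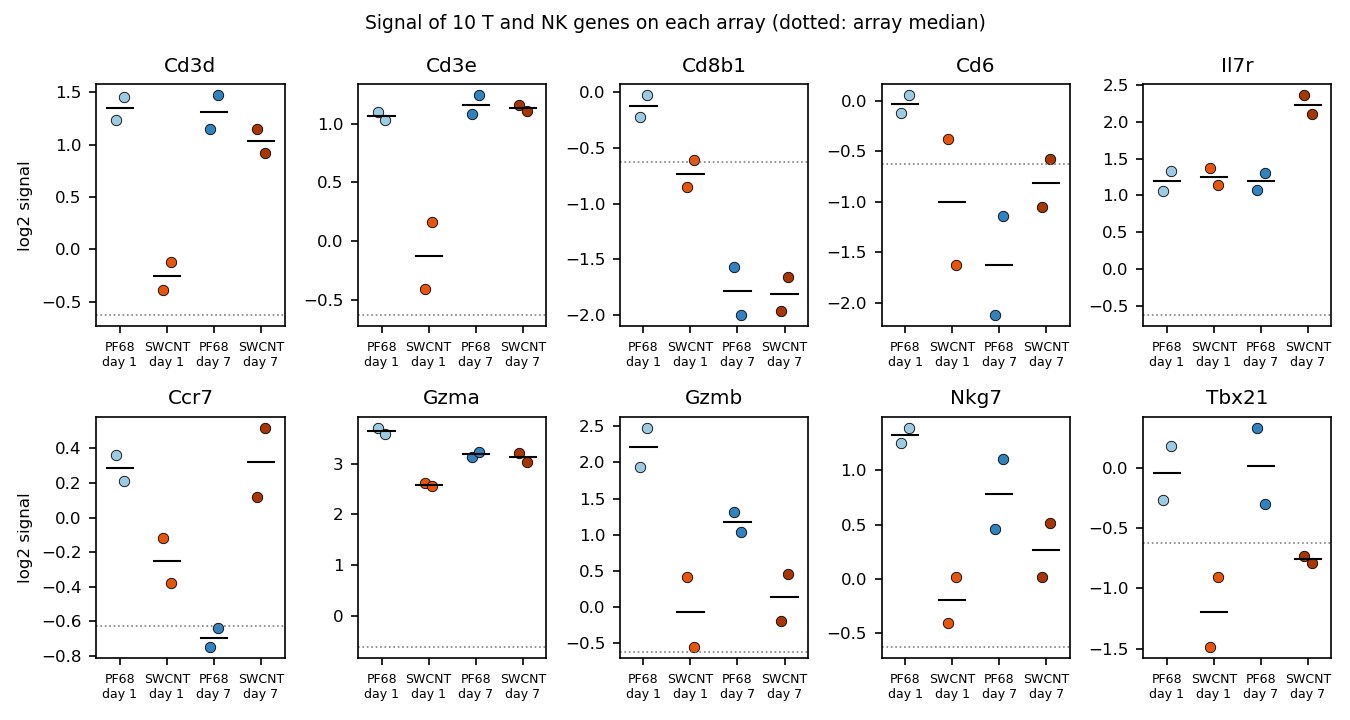
Points give the log2 signal of 10 genes on the 2 arrays of each group, black bars the group means and the dotted line the array median; each panel has its own vertical scale. The SWCNT day 1 points are the lowest 2 of 8 for Cd3d, Cd3e and Gzma, and the SWCNT day 7 points the highest 2 for Il7r.

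Of the receptor genes of the cytotoxic and NK side none was called on day 1, and all 5 tested had a difference below 0. Klrd1, which encodes CD94, differed by -0.90 ± 0.297 (adjusted p = 0.193), Klrk1, encoding the activating receptor NKG2D, by -0.86 ± 0.208 (adjusted p = 0.115), and Il2rb, the shared receptor chain for interleukins 2 and 15, by -0.72 ± 0.186 (adjusted p = 0.128). These 3 had groups that did not overlap. Klrg1, an inhibitory receptor of mature NK and effector T cells, differed by -0.41 ± 0.323, also with groups apart, and Ncr1, which encodes the NK receptor NKp46, by -0.53 ± 0.472 with overlapping arrays. Tbx21, the gene of the transcription factor T-bet, read -0.27 and 0.18 in PF68 day 1, -1.49 and -0.91 in SWCNT day 1, 0.33 and -0.30 in PF68 day 7 and -0.73 and -0.79 in SWCNT day 7. Both SWCNT groups lay below the array median, so that Tbx21, like Klrk1, was tested only because its PF68 arrays were high, and the day 1 difference of -1.16 ± 0.301 did not pass (adjusted p = 0.133). Eomes, the related factor, was dim and scattered (0.47 ± 0.734), and its brighter probe set, not tested, was at -0.54.

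In bulk lung, fewer T or NK cells and less of these RNAs per cell cannot be told apart. Other genes of these cells had 0 of 32 tested called higher on day 1, 3 lower and 29 not called, with a median of -0.57. The 3 were the chemokine gene Ccl5 (-1.65 ± 0.173), the actin regulator gene Coro1a (-1.08 ± 0.117) and Cd52 (-0.94 ± 0.105), of which Coro1a and Cd52 are expressed by leukocytes at large. Of 12 tested B cell genes 1 was called, Ighm, which was higher, with a list median of -0.54, and of 8 monocyte and dendritic cell genes Ms4a4c and Plac8 were called lower, with a median of -0.38. Interferon-induced genes moved with the T and NK genes: 18 of 21 were called lower, and their summed level was 8.33 to 8.37 in PF68 day 1, 5.76 to 5.85 in SWCNT day 1 and 6.07 to 6.18 in both day 7 groups. Of the lymphocyte ligands, 2 of 16 were called lower, Ccl5 and the interferon-induced Cxcl10 (-4.36 ± 0.302). Of the thymus list, 3 of 10 genes passed the filter and none was called in limma (1 at an unadjusted p under 0.05); Ccr9, Psmb11 and Foxn1 lay below the array median on all arrays. The summed level of that list was 3.22 to 3.53 in PF68 day 1 and 3.08 to 3.17 in SWCNT day 1. That of the lymph node stroma list was 2.29 to 2.42 in PF68 day 1, 2.95 to 3.03 in SWCNT day 1 and 1.54 to 1.84 on day 7, with none of its 3 tested genes called on day 1 in limma (1 at an unadjusted p under 0.05). Blood cell genes moved with the day 1 result: of 6 platelet genes Gp1bb and Ppbp were called lower, with a median of -0.77, and of 3 erythroid genes Slc4a1 was called lower (-2.13 ± 0.207). The part of muscle, epithelial and lymph node RNA, of blood, of RNA quality and of the interferon genes in the day 1 result was not tested. Both day 1 calls were lost when any 1 of the 4 day 1 arrays was left out, and with only those 4 arrays in the fit. Without 1 array the differences were -1.75 to -1.48 for Cd3d and -1.13 to -1.02 for Gzma. The fit of those 4 arrays called 30 of all genes higher and 27 lower. Calls over all genes fell as well without 1 day 1 array, so the loss is not particular to these genes.

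On day 7 few of these genes differed. Il7r, the interleukin 7 receptor chain that sustains naive and memory T cells, rose 2.06-fold in SWCNT lungs, and Ccr7 differed by a like amount without passing the test. Of the T cell genes 11 of 17 had a difference above 0, with a median of 0.30, and of the cytotoxic and NK genes 9 of 12 were below 0, with a median of -0.30, while the median of all genes was 0.02 and 52.2% of all genes were above 0 and 47.8% below. With spike scaling the medians were 0.86 and 0.26, so the cytotoxic and NK side lay below 0 only relative to the other genes. Probe sets of a gene differed in sign for Cd8a, Cd4, Cd247 and Prf1. The one used was at 0.62 for Cd8a (others -0.84 to 0.03) and 0.73 for Cd4 (the other -0.42). It was at 0.09 for Cd247 (others -1.2 to 0.25) and -0.71 for Prf1 (the other 0.11). In all, 1 of 29 genes was called (3.45%), against 2.18% of all genes in either direction and 1.40% higher. The groups were apart upward for 6 genes, all of the T cell side, and downward for 4, of which 3 were of the cytotoxic and NK side. The shares over all genes were 28.2% and 25%, above those of these genes (20.7% and 13.8%). Klrk1 and Tbx21, which entered the test through their PF68 arrays, are among the genes below 0 and those apart downward. They are not support for that direction. Without these 2, 13 of 27 genes were below 0 and 2 were apart downward. Over all 31 measured genes, each on its tested probe set where it had one, 16 were below 0. At an unadjusted p under 0.05, 2 of 29 were higher and 3 lower, Tbx21 among the latter, against 13.1% and 10.1% of all genes.

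**Figure D3:**
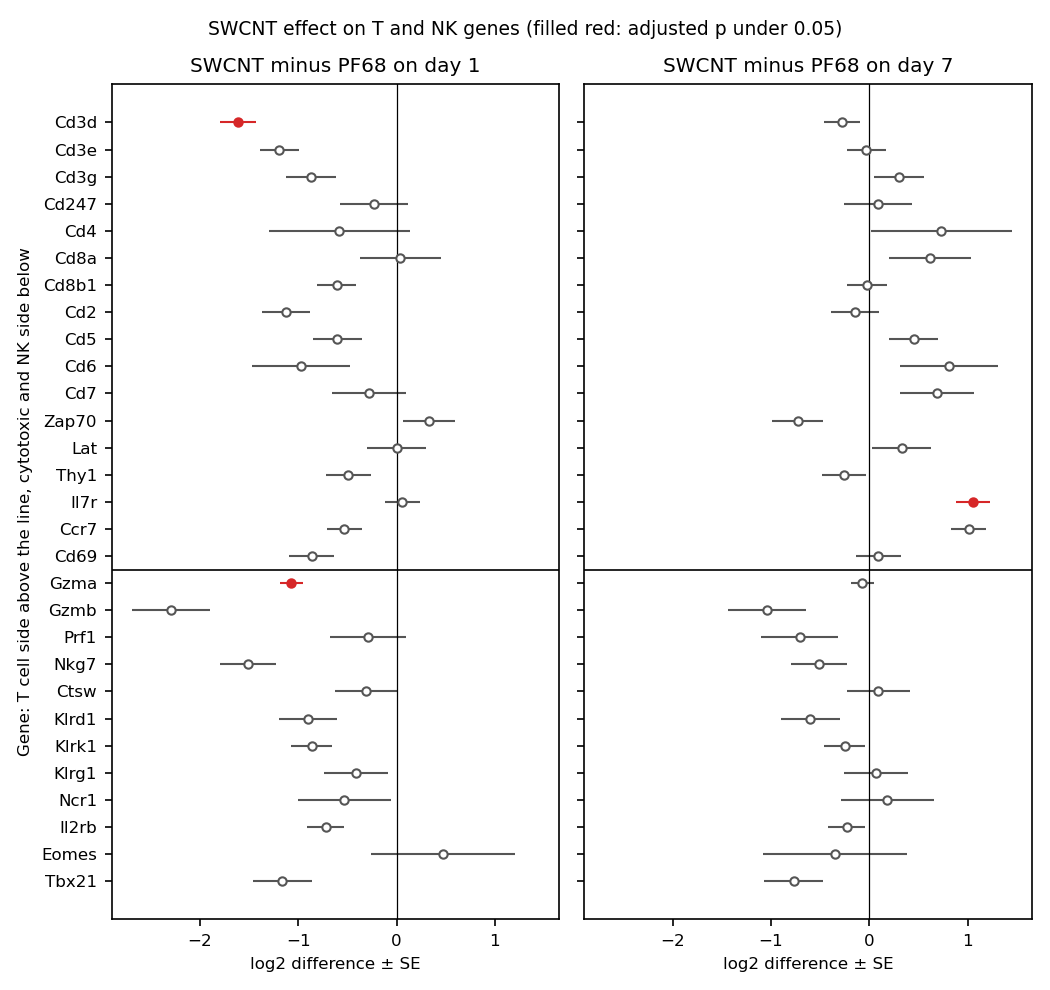
Points give the log2 difference between SWCNT and PF68 lungs for the 29 tested genes on each day, with bars of 1 SE; filled red points passed an adjusted p of 0.05. On day 1 most points lie left of 0 (24 of 29), and on day 7 Il7r and Ccr7 lie near 1 while Gzmb lies near -1.

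Il7r (1448575_at) read 1.06 and 1.33 in PF68 day 1, 1.37 and 1.14 in SWCNT day 1, 1.07 and 1.31 in PF68 day 7 and 2.36 and 2.11 in SWCNT day 7. Only the last group stood apart, above all 6 other arrays. The difference was 1.05 ± 0.174, just past the threshold (adjusted p = 0.0499687 in limma), and its other probe set, dim on most arrays, differed by 0.25. Ccr7 read 0.36 and 0.21, then -0.12 and -0.38, then -0.75 and -0.64, then 0.12 and 0.52 in the same order. Its PF68 day 7 arrays were the lowest, below the array median, and the difference of 1.01 ± 0.178 was not called (adjusted p = 0.0531). Cd6, Cd7, Cd5 and Cd3g also had SWCNT arrays wholly above PF68 arrays, at 0.81 ± 0.498, 0.69 ± 0.378, 0.45 ± 0.250 and 0.30 ± 0.258, and none passed. Of these, Cd5 reached the array median on 1 PF68 day 1 and 1 SWCNT day 7 array only, so it is not support for that direction. Cd3d and Cd3e, low on day 1, differed by -0.28 ± 0.182 and -0.03 ± 0.200 on day 7, with overlapping arrays; with spike scaling both were above 0 (0.29 and 0.53). Zap70 differed by -0.73 ± 0.261 (adjusted p = 0.176), with its SWCNT arrays wholly below, and its other probe sets by -0.16 and -1.0.

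On the cytotoxic and NK side, Gzmb differed by -1.04 ± 0.399 (adjusted p = 0.196) and Tbx21 by -0.77 ± 0.301 (adjusted p = 0.202), each with both SWCNT arrays below both PF68 arrays, as were those of Klrk1 (-0.25 ± 0.208); Tbx21 and Klrk1 reached the array median on PF68 arrays only. Prf1 was at -0.71 ± 0.388, Klrd1 at -0.60 ± 0.297 and Nkg7 at -0.51 ± 0.286, all with overlapping arrays. Gzma, called lower on day 1, differed by -0.07 ± 0.119 on day 7; it and Nkg7 were above 0 with spike scaling (0.50 and 0.05). None of the 32 other T and NK genes tested was called on day 7 in limma (4 at an unadjusted p under 0.05), and their median was -0.19. Of the ligands, Ccl3, a chemokine of T cells and monocytes, was called higher by 1.77 ± 0.186, Il15, the NK survival cytokine gene, differed by 1.40 ± 0.333 without passing, and Il7 by -0.62 ± 0.368. Neutrophil genes moved with the SWCNT day 7 arrays, 5 of 9 being called lower and 1 higher; their part in the result was not tested. The Il7r call was lost when any 1 of the 8 arrays was left out and with only the 4 day 7 arrays in the fit. Without 1 array its difference was 0.92 to 1.18. The fit of those 4 arrays called 0 of all 13854 genes, and calls over all genes fell as well without 1 array, so the loss is not particular to Il7r.

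The T cell and the cytotoxic and NK sides were set against each other by the median over a side's tested genes of each gene's deviation from its own mean. For the T cell side it was 0.18 and 0.30 in PF68 day 1, -0.10 and -0.32 in SWCNT day 1, -0.19 and 0.05 in PF68 day 7 and 0.29 and 0.17 in SWCNT day 7. For the cytotoxic and NK side it was 0.27 and 0.52, then -0.47 and -0.43, then 0.08 and 0.18, then -0.23 and -0.16. Both sides were low in SWCNT day 1, and in SWCNT day 7 only the T cell side was above 0. T minus NK was -0.27 to -0.09 on the 4 PF68 arrays and 0.11 to 0.52 on the 4 SWCNT arrays. The cytotoxic and NK side here includes Klrk1 and Tbx21, which entered the test through their PF68 arrays. The values by array were not computed without them, so this split is not support for a direction. The T minus NK values had an SD of 0.135 between arrays of a group. As a difference between treatments, the T cell median lay 0.21 above the cytotoxic and NK median on day 1 (-0.58 against -0.79) and 0.60 above it on day 7. These are medians of the genes' differences, another measure than T minus NK by array, so that SD is not their spread and the measures need not match. No test was made of these medians. With only the 15 genes at or above the median on all arrays, the day 7 value was 0.14, it was 0.39 with the mean of the passing probe sets, and it was 0.34 without the first SWCNT day 7 array. On day 1 it was 0.37 without the first PF68 array, 0.12 without the second, 0.35 without the first SWCNT array and 0.41 without the second. Without Klrk1 and Tbx21, an alternative chosen after seeing the data, it was 0.05 on day 1 and 0.59 on day 7. The 15 genes at or above the median on all arrays also leave out these 2, and there the day 1 value was 0.22.

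**Figure D4:**
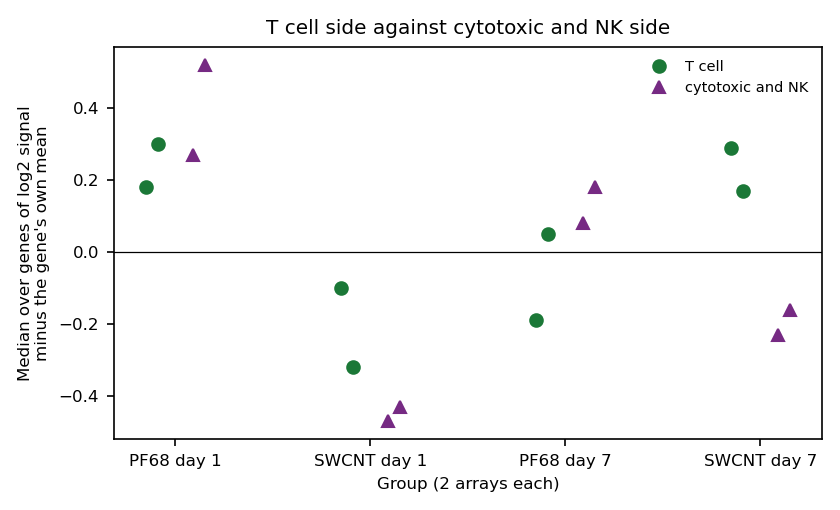
Points give, for each array, the median over the 17 tested T cell genes (circles) or the 12 tested cytotoxic and NK genes (triangles) of the log2 signal minus the gene's own mean over the 8 arrays. In SWCNT day 7 the circles lie at 0.29 and 0.17 and the triangles at -0.23 and -0.16. The 12 genes include Klrk1 and Tbx21, which reached the array median on PF68 arrays only.

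The SWCNT effect itself was compared between the days by the interaction term, day 7 minus day 1. It was above 0 for Ccr7 (1.55 ± 0.252, adjusted p = 0.0472 in limma) and for Gzma (1.01 ± 0.168, adjusted p = 0.0489), that is 2 of 29 genes (6.90%), against 2.34% of all genes in either direction and 1.41% above 0. Cd3d (1.34 ± 0.258, adjusted p = 0.0629) and Cd3e (1.16 ± 0.283, adjusted p = 0.0992) did not pass. The largest value, that of Cd6 at 1.78 ± 0.704, did not pass either. The term was above 0 for 26 of the 29 genes, against 53.8% of all genes, and for 22 of 23 without the 6 genes that reached the array median in 1 treatment or on 1 day only. The 23 still hold Cd5 and Ncr1, which reached that median on 1 PF68 day 1 and 1 SWCNT day 7 array only. High values in these groups raise the term, so Cd5 and Ncr1 are not support for its direction. Over all 31 measured genes, each on its tested probe set where it had one, the term was below 0 for 3. Eomes is among these 3, but its brighter probe set, at -0.54 on day 1 and -0.41 on day 7, goes the other way. Of the other T and NK genes it was above 0 for 20 of 32, with Cd52 called higher (1.11 ± 0.149) and S1pr1 called lower (-1.05 ± 0.157). Interferon-induced genes moved with it, 17 of 21 being called higher with a median of 2.46, as did skeletal muscle genes, 8 of 11 being called lower with a median of -3.46, and adipose genes, 4 of 6 being called lower; their part was not tested. It uses the same arrays as the differences within each day. Both calls were lost when any 1 array was left out, where calls over all genes fell too.

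Between the days within a treatment, the shares of T and NK genes called were near or below those of all genes. In PF68 lungs 3 of 29 were called, all lower on day 7 (10.3%, against 17.7% of all genes in either direction and 8.86% lower). Cd8b1 read -0.22 and -0.03 in PF68 day 1, -0.85 and -0.61 in SWCNT day 1, -1.57 and -2.0 in PF68 day 7 and -1.96 and -1.66 in SWCNT day 7, so both day 7 groups lay below both day 1 groups and below the array median. It reached that median on 3 arrays, all of day 1, and so was tested only through the day on which it was high; its fitted differences (-1.66 ± 0.203 in PF68, adjusted p = 0.00978; -1.08 ± 0.203 in SWCNT, adjusted p = 0.0227) compare a dim signal with a dimmer one. Without the 4 genes that reached the median on 1 day only, 2 of 25 were called in PF68. Ccr7 (-0.98 ± 0.178, adjusted p = 0.0206) and Gzma (-0.46 ± 0.119, adjusted p = 0.0492) fell in PF68. Of the other T and NK genes 3 of 32 were called higher and 5 lower, those with the largest differences being Ccl5 (-1.38 ± 0.173), Bcl11b (1.35 ± 0.33), Il18rap (-0.98 ± 0.225) and S1pr1 (-0.95 ± 0.111). Interferon-induced genes moved with this comparison, 18 of 21 being called lower with a median of -2.17. So did Cxcl13, a chemokine of lymphoid stroma (-1.61 ± 0.166), and the beta-actin gap, which was 2.01 to 2.04 on day 1 and 3.25 to 3.29 on day 7; their part was not tested. Leaving out either PF68 day 1 array left 0 calls, and leaving out the first PF68 day 7 array left 1, Cd8b1. Ccr7 was also lost without the second PF68 day 7 array, and Gzma without any 1 of the 8 arrays. Calls over all genes fell too when 1 array was left out.

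In SWCNT lungs 5 of 29 were called (17.2%, against 16.3% of all genes), 4 of them higher on day 7 and 1, Cd8b1, lower, against 9.59% of all genes higher and 6.7% lower. Without the 4 genes that reached the median on 1 day only, 4 of 25 were called. Cd3d rose by 1.29 ± 0.182 (adjusted p = 0.0116), Cd3e by 1.26 ± 0.200 (adjusted p = 0.0151), Il7r by 0.98 ± 0.174 (adjusted p = 0.0198) and Gzma by 0.54 ± 0.119 (adjusted p = 0.0341). These comparisons share the SWCNT day 1 and day 7 arrays with those against PF68. Of the other T and NK genes, 3 of 32 were called higher and 2 lower: Coro1a (1.04 ± 0.117) was among the former, and S1pr1, a receptor for lymphocyte egress that endothelium also makes, fell by 2.0 (-2.0 ± 0.111), and fell in PF68 too. Of the lung endothelium list 5 of 10 were called lower in the same comparison. Skeletal muscle genes moved with it too, 11 of 11 being called lower on day 7, as was Cxcl13 (-2.34 ± 0.166), and their part was not tested. Leaving out either SWCNT day 1 array left 1 call, Cd3e, and leaving out either SWCNT day 7 array left 0. Gzma was also lost without either PF68 day 1 array. Calls over all genes fell too without 1 SWCNT array or 1 PF68 day 1 array.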

How the data were processed

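Biotin-labelled RNA of 1 lung lobe was measured on single-colour Affymetrix arrays, per the labels' protocols. The authors' deposited values were taken as log2 signals after RMA, which the submitters' processing notes name without a version. Neither the log base nor the offset is given in the sources used here, so the size of a difference rests on that reading. All 8 arrays hold the same sorted values. Symbols are those of an older platform annotation.

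Of 45101 probe sets, 64 controls and 8 with a missing value were left out; 34939 had 1 symbol. Probe sets reaching the array median on 2 or more of 8 arrays were kept, and each gene took the kept one with the highest mean (13854 genes). Eomes was thus tested on its second probe set. All 8 arrays entered 1 fit with 4 group means (limma 3.58.1, R 4.3.3; lmFit, eBayes; 4 residual and 1.81 prior degrees of freedom), so that the groups share an estimate of spread. P-values were adjusted by Benjamini and Hochberg's method over all genes, with a threshold of 0.05. The steps were tested on simulated data.

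Values on every array are given for members called in any of the 5 comparisons and for the 5 largest differences on each day, with others chosen after their values were seen; other T and NK genes are named, up to 4 a comparison, when called. Members, lists, motifs and tests were chosen with earlier results of these data known. Alternatives covered scaling, filter, probe set, variance model, array weights, replicate block, arrays fitted, threshold and leaving out each array.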

Additional observations from a re-analysis of the deposited data

Results flagged for a closer look

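The effect of SWCNT on 2 genes differed between the days by the interaction test. For Ccr7 the difference between SWCNT and PF68 was higher on day 7 than on day 1 by 1.55 on the log2 scale (1.01 against -0.53; adjusted p = 0.0472 in limma), and for Gzma by 1.01 (-0.07 against -1.07; adjusted p = 0.0489). The arrays of the groups were apart on both days for Ccr7, downward on day 1 and upward on day 7. For Gzma they were apart on day 1. With 2 arrays a group, no array could be tested as an outlier.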

How the results depend on the processing

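The main counts of called T and NK genes were 2 (day 1), 1 (day 7), 2 (difference between the days), 3 (PF68 day 7 minus day 1) and 5 (SWCNT day 7 minus day 1). In that order, spike scaling gave 7, 7, 16, 15 and 6, trend and robust variance 6, 1, 5, 5 and 4, and a threshold of 0.10 gave 6, 2, 4, 6 and 7. Genes at or above the median on all 8 arrays gave 6, 1, 4, 2 and 5 (15 tested), array weights 5, 0, 0, 2 and 5, cyclic loess 2, 0, 1, 3 and 5, no filter 2, 0, 0, 2 and 4, and the mean of the passing probe sets 2, 0, 0, 2 and 3. Calls over all genes changed with the setting too, so a changed count is not by itself a result about these genes. On day 1 the main setting called 129 of all genes higher and 171 lower. Trend and robust variance called 536 and 718, a threshold of 0.10 called 304 and 385, and array weights 167 and 245. Genes at or above the median on all 8 arrays gave 288 and 408 (9802 tested), and no filter 51 and 72. Of all 13854 genes, spike scaling called 99 higher and 641 lower on day 1, and 6320 higher and 75 lower on day 7. It called 6398 higher and 102 lower for the difference between the days, and 136 higher and 6376 lower for PF68 day 7 minus day 1. For SWCNT day 7 minus day 1 it called 2051 higher and 648 lower. Fitting only the arrays compared gave 0 in each of the 4 comparisons of 2 groups, where the fit has fewer arrays. Of all genes these fits called 30 higher and 27 lower on day 1 and 0 on day 7. They called 0 for PF68 day 7 minus day 1, and 1 higher and 6 lower for SWCNT day 7 minus day 1. Calls over all genes were mostly fewer, too, when 1 array was left out. Leaving out 1 array gave 0 to 3, 0 to 0, 0 to 0, 0 to 2 and 0 to 7; a lone array is then assumed to vary like the other groups. Same-numbered arrays did not deviate together (correlations -0.00605 to 0.0114), so the numbers do not pair the arrays; with the replicate block the counts were 2 (Cd3d and Nkg7, without Gzma), 0, 0, 2 and 4. The T cell median minus the cytotoxic and NK median was 0.12 to 0.41 on day 1 and 0.34 to 0.65 on day 7 without 1 array, and on day 7 0.39 with the mean of the passing probe sets and 0.14 with genes above the median on all arrays. Without Klrk1 and Tbx21, which reached the array median in PF68 only, it was 0.05 on day 1 and 0.59 on day 7 (chosen after seeing the data). Of the named genes, day 7 differences turned with spike scaling to 0.29 (Cd3d), 0.53 (Cd3e), 0.54 (Cd8b1), 0.50 (Gzma) and 0.05 (Nkg7). Without 1 array they ranged from -0.11 to 0.05 (Cd3e), from -0.24 to 0.19, with 0.13 between (Cd8b1), and from -0.16 to 0.03 (Gzma). Il7r on day 1 turned to -0.16 with spike scaling and ranged from -0.08 to 0.20 without 1 array, with -0.05 between. Spike scaling is read relative to the median gene. The cause of these changes was not tested. Signals under the array median, where 11 of 31 genes lie, limit what can be seen.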

Other observations

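The 2 genes that did not pass the filter on dim signals were measured all the same. Sh2d1a, the adaptor SAP of T and NK cells, read -2.0 and -1.51 in PF68 day 1, -3.19 and -3.04 in SWCNT day 1, -2.69 and -1.56 in PF68 day 7 and -2.0 and -1.57 in SWCNT day 7, below the array median throughout. Cd28, the main costimulatory receptor of T cells, read -0.08 and -0.63, then -1.36 and -0.89, then -0.84 and -0.79, then -1.20 and -1.79 in the same order. Both had their SWCNT day 1 arrays below their PF68 day 1 arrays.

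Platelet genes had 1 of 6 called in SWCNT lungs on day 7, Gp1bb, which was lower, with a list median of -0.39.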
